A study of Columba livia with 16 samples.

Results

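A total of 4428 regions carried an H3K27ac peak in the hindlimb buds of Indian fantail embryos and in none of the other limb buds examined. They were selected on the deposited peak calls themselves: the 4 peak lists were pooled, peaks that overlapped by 1 bp or more were joined, and the joined regions with a peak in the Indian fantail hindlimb list alone were kept. These regions made up 16.7% of all 26456 joined regions (95% Wilson interval 16.3–17.2%), and because the peak calls defined them, no test of their number was made.

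The limb buds came from pigeon embryos at Hamburger-Hamilton stage 25, of the scale-footed racing homer and of the Indian fantail, a breed with feathered feet. For each breed, forelimb and hindlimb buds were assayed separately by ChIP-seq with an antibody to H3K27ac, with 2 ChIP libraries and 2 input libraries per breed and limb (16 libraries), and the study asked where regulatory activity differed between the limbs and breeds. How many embryos went into a library was not given in the sources used here. The authors deposited 1 peak list per breed and limb, with no value per replicate and no read count, so neither the spread between replicates nor the depth behind a peak is known.

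Acetylation of lysine 27 on histone H3 is laid down at active enhancers and promoters, and a peak marks a stretch of the genome where the ChIP sample is enriched for it. Limb type in birds depends on transcription factors with limb-restricted activity, among them Pitx1 in the hindlimb and Tbx5 in the forelimb, and the genes they act with are switched on through enhancers that can lie far from the gene. A region with a peak in a single list is a place where the peak caller passed its threshold in that tissue and did not pass it in the others, which is not the same as a mark that is absent elsewhere.

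Indian fantail hindlimb alone was the second most frequent of the 15 combinations of lists, after the 9718 regions with peaks in all 4 lists. Each of the 4428 regions consisted of 1 peak, so they held 4428 of the 22407 peaks of the Indian fantail hindlimb list, or 19.8% (19.2–20.3%). In the racing homer hindlimb list, 1695 of 18821 peaks (9.01%, 8.61–9.42%) were in no other list. The forelimb lists had fewer such peaks, 1165 of 16474 (7.07%) in the racing homer and 902 of 15357 (5.87%) in the Indian fantail. There were therefore 2.61 Indian fantail hindlimb regions for each region of the racing homer hindlimb alone, and the Indian fantail hindlimb list was also the longest of the 4.

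**Figure D1:**
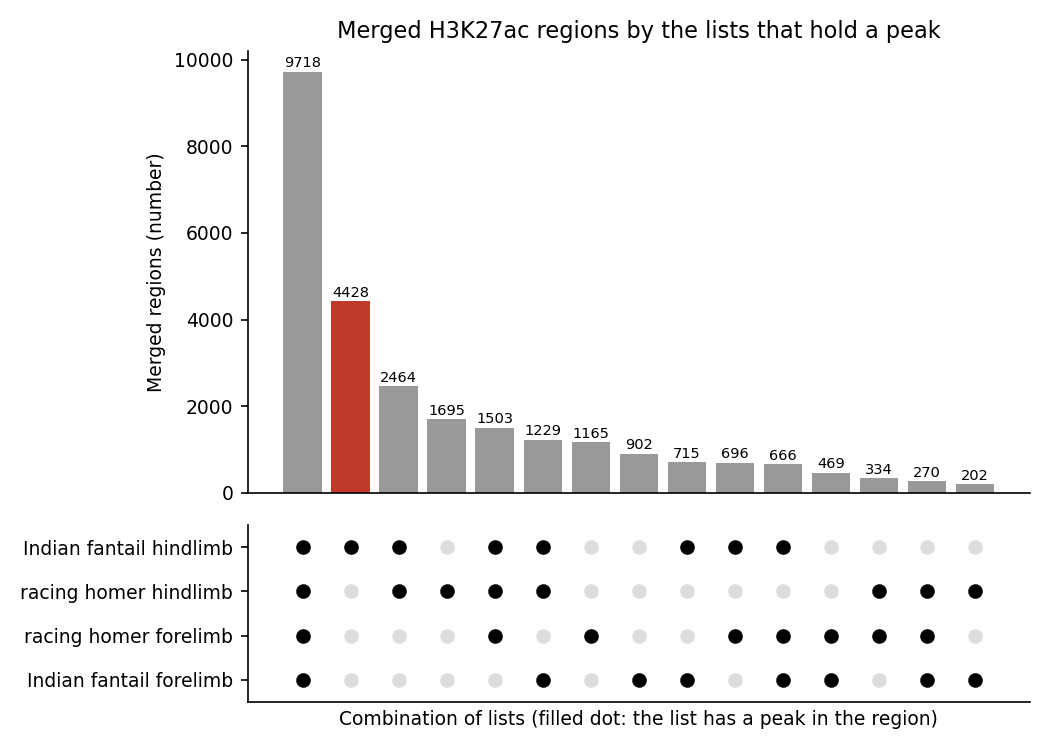
Number of joined H3K27ac regions (bars, vertical axis) for each of the 15 combinations of the 4 peak lists, shown by filled dots under each bar. The red bar is the 4428 regions with a peak in the Indian fantail hindlimb list alone, second to the 9718 regions with a peak in all 4 lists.

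The length of the lists moved with this count. When each list was shortened to its 15357 highest-scoring peaks, the length of the shortest list, 1614 regions of the Indian fantail hindlimb alone remained, against 1407 for the racing homer hindlimb, 1464 for the racing homer forelimb and 1597 for the Indian fantail forelimb. The ratio between the hindlimb lists then fell from 2.61 to 1.15, and 1202 of the 1614 regions were among the original 4428. The ratio moved the other way when a minimum score, rather than a fixed number of peaks, was set for every list. It was 2.85 with the upper part of each list above its own median and 3.68 with scores of at least 100 in every list. These settings left the Indian fantail hindlimb list the longest (11204 and 14028 peaks, against 9411 and 11243 for the racing homer hindlimb). Only 287 of the 2078 regions at the median cut and 831 of the 3040 at a score of 100 were among the original 4428. The others had lost a peak of another list that scored below the cut. When Indian fantail hindlimb peaks alone had to reach 100 and the other lists stayed whole, the ratio fell to 0.272 (831 against 3058 regions). The Indian fantail hindlimb list was then the shortest, with 14028 peaks. The direction of the ratio thus depended on which lists were cut and how. What part sequencing depth, which is unknown here, had in the length of the lists cannot be told apart from these files.

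Beside single-list regions, the Indian fantail hindlimb list shared most regions with the racing homer hindlimb. There were 2464 regions with peaks in both hindlimb lists and no forelimb list, against 715 with peaks in both Indian fantail limbs alone and 696 shared with the racing homer forelimb alone. Thus 4428 regions had a peak in the Indian fantail hindlimb list alone, whereas 2464 had peaks in both hindlimb lists and no forelimb list. The 2464 leave out regions of both hindlimb lists that also held a forelimb peak, among them the 9718 regions of all 4 lists.

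Peaks found in the Indian fantail hindlimb alone had low scores within their list. The peak score is a value that the peak caller assigns. It was compared only within a list, apart from the setting above that applied the same minimum of 100 to every list. Scores of these peaks ran from 50, the lowest value in the list, to 432.41. Their median was 69.9 (69.1–70.8), with quartiles of 57.9 and 90.8. The median over all peaks of the list was 136, and the median of the single-list peaks exceeded 19.3% of the list. Scores under 60 were found for 1350 of them (30.5%), compared with 11.0% of the whole list. A total of 831 (18.8%) scored at least 100, compared with 62.6% of the list, and 51 scored at least 200. The single-list peaks thus sat near the calling threshold, and 3716 peaks of the list (16.6%) scored higher than the strongest of them.

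When the list was ordered by score and divided into deciles, the share of peaks found nowhere else fell at each step. It was 54.7% (52.7–56.8%) in the lowest decile, with scores up to 58.9, and 46.9% in the next. It was 18.6% in the fifth decile, 3.13% in the seventh and 0.134% in the ninth, and in the highest decile none of 2241 peaks was found in this list alone (upper bound 0.171%). The racing homer hindlimb list showed the same fall from a lower start, 31.4% in its lowest decile, 5.58% in the fifth and 0.0531% in the ninth. The lower 5 deciles held 4141 of the 4428 Indian fantail hindlimb peaks (93.5%) and 1638 of the 1695 racing homer hindlimb peaks (96.6%), so that in both hindlimb lists the peaks found nowhere else lay almost entirely below the median score.

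**Figure D2:**
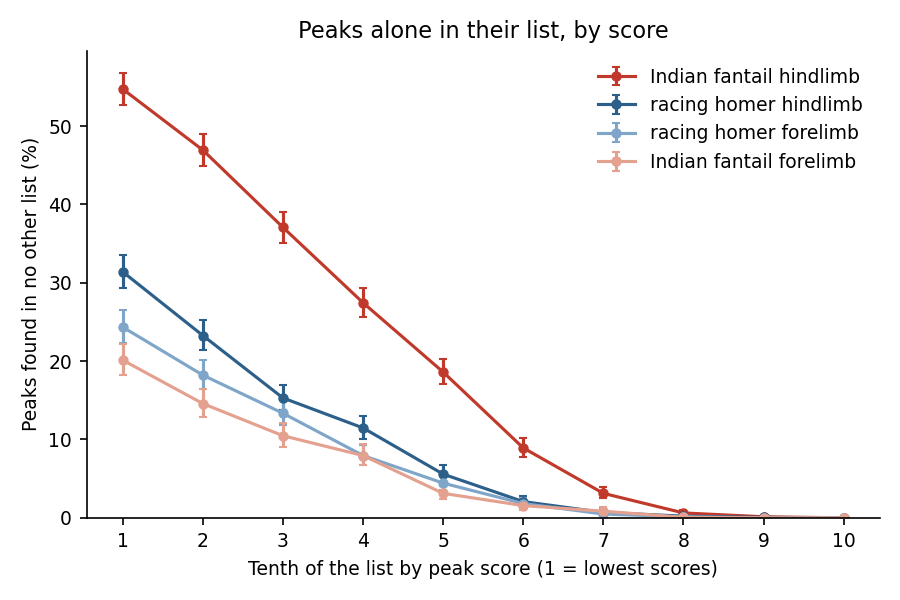
Share of peaks found in no other list (vertical axis, percent, with 95% Wilson intervals) in each decile of a list ordered by peak score (horizontal axis, 1 = lowest scores), for the 4 lists. In the Indian fantail hindlimb the share falls from 54.7% to 0 of 2241 peaks, and it lies above the other lists in each of the lowest 7 deciles.

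Scores rose with the number of other lists that held a peak in the same region. Indian fantail hindlimb peaks in regions of 1 other list (3919 peaks) had a median score of 89.4, those with 2 other lists (3513 peaks) 119, and those with peaks in all 4 lists (10547 peaks) 300. The single-list peaks, at 69.9, formed the lowest step of this series.

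The single-list peaks were also narrow. Their widths ran from 291 to 4353 bp, with a median of 1190 bp (1171–1210 bp), quartiles of 871 and 1557 bp, and 90% under 1978 bp, whereas the median of the whole list was 1644 bp. A total of 1551 (35.0%) were under 1 kb wide, compared with 21.3% of the list, and 417 (9.42%) were at least 2 kb wide, compared with 37.9%. Together they covered 5.63 Mb of the 48.4 Mb under Indian fantail hindlimb peaks, so that 19.8% of the peaks accounted for 11.6% of the covered sequence.

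Width, too, rose with the number of lists. The median was 1391 bp with 1 other list, 1593 bp with 2 and 2293 bp with all 4 lists. The regions of the other lists alone were of similar width, with medians of 1153 bp for the racing homer hindlimb, 1048 bp for the racing homer forelimb and 1235 bp for the Indian fantail forelimb. A narrow peak was therefore a feature that the Indian fantail hindlimb regions had in common with single-list regions of every limb bud.

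**Figure D3:**
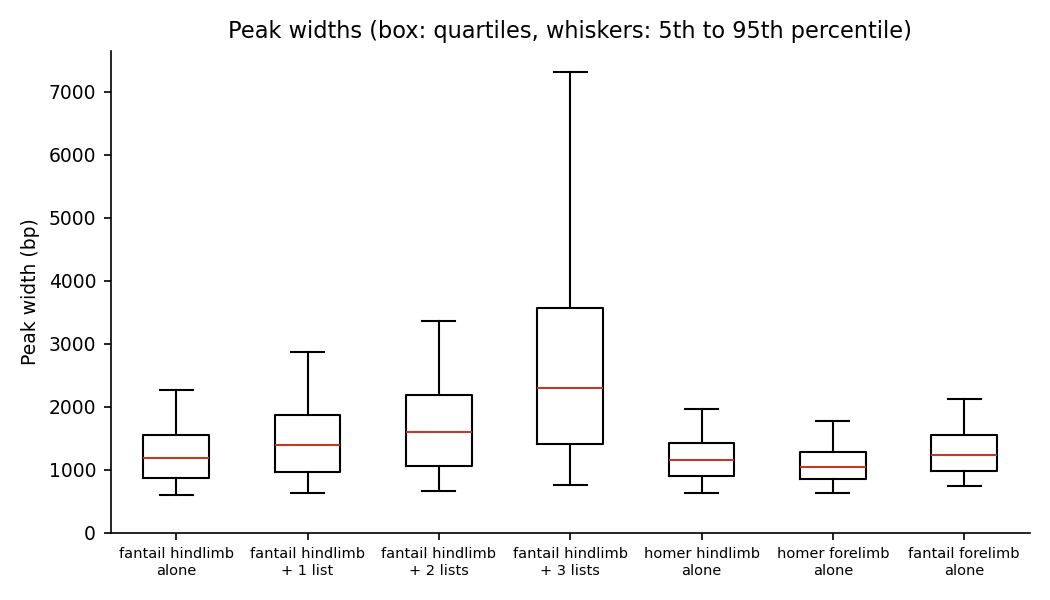
Peak widths in bp (vertical axis) of Indian fantail hindlimb peaks by the number of other lists with a peak in the same region, and of peaks found in each other list alone. Boxes span the quartiles with the median as a red line and whiskers run from the 5th to the 95th percentile; the median rises from 1190 bp for peaks of the Indian fantail hindlimb alone to 2293 bp for peaks in all 4 lists.

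Score and width were linked. Across the 4428 peaks Spearman's rho between them was 0.39, and across all 22407 peaks of the list it was 0.60, given as a description because the peaks share libraries and neighbours. Within the lowest decile of scores, peaks found in the Indian fantail hindlimb alone had a median width of 1010 bp and the other peaks 1184 bp. The order turned in the sixth decile, at 1909 against 1804 bp. At a like score, the difference in width was thus smaller than over the list as a whole and changed direction with the score. When the list was divided by width instead, the share found nowhere else stayed between 31.5% and 33.7% over the 4 narrowest deciles, from 278 to 1402 bp, and then fell to 0.178% in the widest.

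Most of the 4428 regions lay close to a region with a peak of another list. The distance between the facing ends had a median of 5713 bp (5245–6110 bp) and quartiles of 1118 and 20681 bp. In total, 1065 regions (24.1%, 22.8–25.3%) lay within 1 kb of such a region, 2645 (59.7%) within 10 kb and 3950 (89.2%) within 50 kb. The other 3 lists had medians of 6703 bp for regions of the racing homer hindlimb alone, 6774 bp for the racing homer forelimb alone and 6758 bp for the Indian fantail forelimb alone. The shares within 1 kb were 18.1% (16.3–20.0%), 17.3% and 17.5%. With the lists as deposited, regions of the Indian fantail hindlimb alone thus stood more often directly beside another region. With lists of equal length their median distance was 6322 bp (5844–7300 bp). Shares within 1 kb and distances for the other lists were not measured at that length.

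The distance was also measured to the nearest region with peaks in all 4 lists, a choice made after the data were seen. Its median was 20064 bp, compared with 23620 bp for the racing homer hindlimb alone, 21333 bp for the racing homer forelimb alone and 21403 bp for the Indian fantail forelimb alone. Within 1 kb of such a region lay 556 Indian fantail hindlimb regions (12.6%, 11.6–13.6%), compared with 8.73%, 7.98% and 7.76% in the same order. Of the other lists taken singly, the racing homer hindlimb had the nearest peaks, at a median of 8130 bp, whereas peaks of the racing homer forelimb lay at 12307 bp and those of the Indian fantail forelimb at 12468 bp. The racing homer hindlimb list was also the longest of these, with 18821 peaks against 16474 and 15357. These distances were not measured with lists of equal length.

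**Figure D4:**
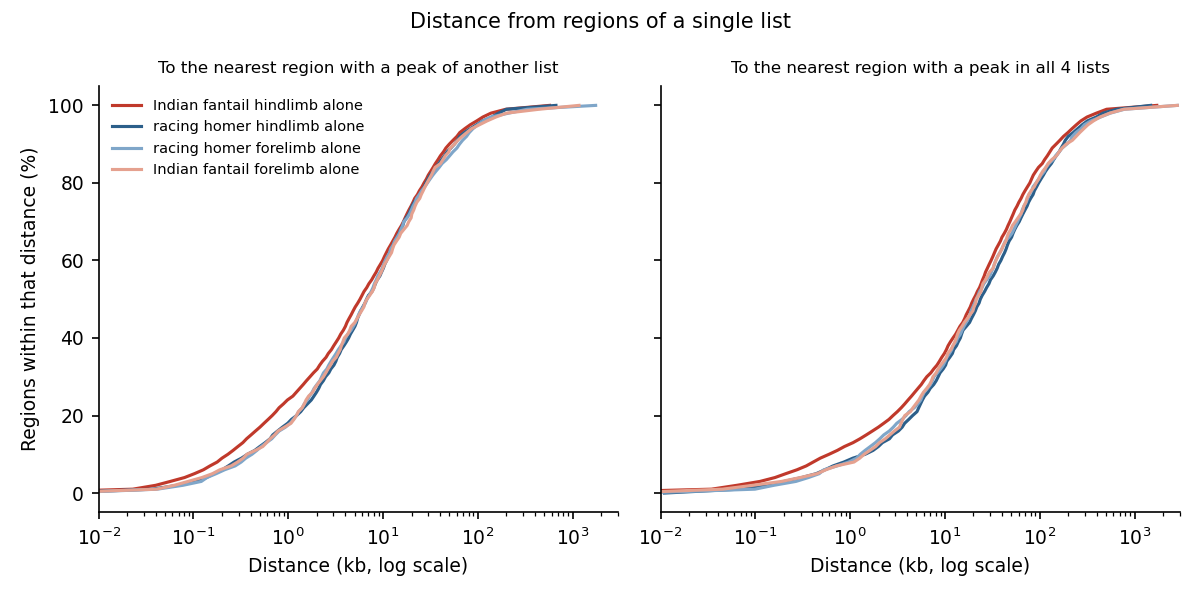
Cumulative share of single-list regions (vertical axis, percent) by distance (horizontal axis, kb, log scale) to the nearest region with a peak of another list (left) and to the nearest region with peaks in all 4 lists (right), for each list. The curve of the Indian fantail hindlimb lies above the others at short distances, with 24.1% within 1 kb on the left and 12.6% on the right, and runs close to them from 10 kb on the left.

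The neighbours were mostly regions that the Indian fantail hindlimb also had. For the 4389 regions with a region of another list on their scaffold, that neighbour held an Indian fantail hindlimb peak of its own in 3483 cases (79.4%), close to the 77.1% of all other regions that held one. It had peaks in all 4 lists in 1869 cases (42.6%, compared with 44.1% of other regions) and in both hindlimb lists alone in 614 (14.0%, compared with 11.2%). A forelimb peak of the racing homer was present in 63.6% of neighbours and one of the Indian fantail in 62.0%, compared with 67.3% and 64.3% of other regions. The neighbours thus resembled the remaining regions in their make-up, with slightly more regions of both hindlimbs among them.

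The nearest neighbours differed by distance. Of the 1065 regions within 1 kb of another region, 919 (86.3%) had a neighbour with an Indian fantail hindlimb peak. In these cases 2 separate peaks of this limb bud lay in neighbouring regions, and at least 1 other list had a peak in the neighbour. The neighbour had peaks in all 4 lists for 538 of the 1065. Of the 439 regions more than 50 kb from any region of another list, 302 (68.8%) had a neighbour with an Indian fantail hindlimb peak. Median scores changed little along this range, from 71.7 within 1 kb to 67.0 beyond 50 kb. Median widths were 1142 bp within 1 kb, 1303 bp at 1 to 10 kb, 1145 bp at 10 to 50 kb and 1038 bp beyond. Regions far from any other were therefore of similar median score to those beside one. The share that scored at least 100 was lower among them, 14.4% beyond 50 kb against 20.1% within 1 kb. The remaining 39 regions lay on 36 scaffolds that held no region of another list, and had a median score of 62.6 and a median width of 809 bp.

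At the edge of the rule, the 3 regions nearest to another were separated from it by 0 or 1 bp. They lay on scaffold 22 from 3040595 to 3041400, directly against a region with peaks of both forelimbs and of the Indian fantail hindlimb, on scaffold 146 from 1173089 to 1173503, and on scaffold 740 from 720865 to 721162, beside a region of all 4 lists. Just outside the rule, 4 Indian fantail hindlimb peaks overlapped a single peak of another list by 1 bp, on scaffolds 423, 56, 565 and 590, with scores of 70.3, 104, 93.0 and 92.8. An overlap of at most 100 bp kept 47 peaks out, and one of at most 500 bp kept out 411.

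The highest-scoring regions were wide. The highest score, 432.41, belonged to a region of 4057 bp on scaffold 232 from 5956114 to 5960170. It lay 90 bp from a region with peaks in both hindlimb lists, whose Indian fantail hindlimb peak scored 229, less than the single-list peak itself. The second was a region of 3016 bp on scaffold 28 from 1169740 to 1172755 with a score of 418, and it stood 72003 bp from the nearest region of another list. The third, on scaffold 34 from 19171234 to 19174202 (score 369), and the fourth, on scaffold 16 from 381256 to 383909 (score 333), stood 97366 and 140872 bp away. These 3 were isolated and high in score, whereas 63 of the 439 regions beyond 50 kb (14.4%) scored at least 100, compared with 18.8% of all 4428. Of the other regions among the 10 highest scores, that on scaffold 28 from 1639785 to 1643435 scored 328 and lay 8791 bp from a region of all 4 lists, and those on scaffolds 179, 490, 539, 123 and 800 scored between 274 and 321 and lay 431 to 4289 bp from their neighbours. All 10 were 2029 to 4057 bp wide, and the nearest region held a peak of both hindlimb lists in 10 of 10. Over all 4389 regions with a neighbour, 3073 neighbours held a peak of both hindlimb lists.

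The widest region, 4353 bp on scaffold 277 from 2998147 to 3002499 with a score of 230, lay 756 bp from a region with peaks in both Indian fantail limbs. Those on scaffold 128 (4072 bp) and scaffold 146 (3996 bp) scored 168 and 198 and were next to regions with peaks in all 4 lists, at 7448 and 715 bp. The narrowest regions were 291 bp on scaffold 393, 298 bp on scaffold 740 and 301 bp on scaffold 220, with scores of 72.8, 89.8 and 76.1, which were above the median of the single-list peaks. These 3 were thus narrow but not among the lowest scores.

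Among the regions that shared a scaffold with a region of another list, the most isolated lay 571775 bp from any region of another list, on scaffold 333 from 86362 to 87424, and had a score of 55.4. The following 4, on scaffolds 64, 114, 63 and 158, lay 444873, 436759, 410419 and 367216 bp away, with scores of 65.3, 111, 107 and 58.8. All 5 were 1001 to 1315 bp wide, near the median of the single-list regions.

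A minority of the regions of the Indian fantail hindlimb alone occurred in groups. With a gap of at most 10 kb between them, 983 of the 4428 (22.2%, 21.0–23.4%) fell into 456 clusters, of which 399 had 2 members, 47 had 3 and 10 had 4 or more. In the other lists, 9.38% of regions of the racing homer hindlimb alone, 7.30% of the racing homer forelimb alone and 6.32% of the Indian fantail forelimb alone fell into such clusters. The sets differed in size, and with lists of equal length the share was 10.2% (8.84–11.8%) for the Indian fantail hindlimb and 7.68%, 8.13% and 7.95% in the same order for the others. Counted instead as runs of consecutive regions on a scaffold with no other region between them, 1464 (33.1%) fell into 653 runs, compared with 16.2%, 14.5% and 9.98% in the other lists, in the same order. The Indian fantail hindlimb set made up 16.7% of all regions and the other sets 6.41%, 4.40% and 3.41%, in the same order. What part set size had in the runs was not tested. With lists of equal length, a comparison added after the data were seen, 17.0% of the Indian fantail hindlimb regions were in runs, compared with 15.6%, 16.3% and 17.0%, so the difference in runs was not present among lists of the same length.

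The largest cluster, which was also the longest run, held 7 regions on scaffold 249 between 464079 and 488274, a span of 24.2 kb. Their scores were 101, 129, 95.6, 57.5, 51.2, 51.8 and 101 in order along the scaffold, and their widths ran from 721 to 1842 bp. No other region lay among them, and the nearest were a region of the racing homer forelimb and the Indian fantail hindlimb 117271 bp before and a region of the racing homer hindlimb alone 52045 bp after. The 7 regions thus stood by themselves in a stretch of 194 kb without a peak in any other list.

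The other large clusters stood beside shared regions. On scaffold 244, 5 regions between 3068725 and 3098716 had scores from 59.7 to 126, held 2 other regions among them, and began 1770 bp from a region of all 4 lists. On scaffold 7, 4 regions with scores from 60.8 to 91.4 were packed into 6.74 kb between 17886016 and 17892757, 122 bp from a region of all 4 lists. On scaffold 454, 4 regions between 1226772 and 1237759 scored 133, 142, 97.8 and 56.0 and lay between a region of all 4 lists 1149 bp before and a region of both racing homer limbs and the Indian fantail hindlimb 1376 bp after. These 3 clusters thus adjoined regions that other limb buds also had. The cluster of 4 on scaffold 101 between 3199465 and 3207952 (scores 57.3 to 66.2) differed, since its nearest region of another list was 31176 bp away. Preceded by 1 more region 70318 bp upstream in scaffold coordinates, it made a run of 5, as did regions on scaffold 303 between 231447 and 278218 (scores 51.4 to 115).

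The regions were spread over many scaffolds. They were found on 568 of the 837 scaffolds with any region. On the 158 scaffolds with at least 50 regions, their share of regions had a median of 16.7% and quartiles of 13.6 and 19.5%. The 95% interval of a scaffold held the overall share of 16.7% on 144 of them, lay above it on 7 and below it on 7. The extremes were scaffold 269, with 16 of 56 regions (28.6%, 18.4–41.5%), and scaffold 836, with 1 of 64 (1.56%, 0.276–8.33%). They outnumbered regions of the racing homer hindlimb alone on 149 of the 158 scaffolds and equalled them on 4. With the lists as deposited, the higher number in the Indian fantail hindlimb thus did not come from a few scaffolds.

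Where regions of all 4 lists were many, regions of the Indian fantail hindlimb alone were many too. In the 1731 windows of 500 kb, the mean number per window rose from 0.561 in 303 windows with no region of all 4 lists to 2.20 in 352 windows with 4 to 6 of them and 5.32 in 22 windows with 21 to 35. The means for the racing homer hindlimb alone were 0.281, 0.932 and 2.05 in the same windows. The summed numbers stood in a ratio of 2 to 3.07 in every class of windows. With the lists as deposited, the excess over the racing homer hindlimb was thus present in sparse and dense windows. Windows were not counted with lists of equal length, for which the ratio over all regions was 1.15. Over the 158 scaffolds, Spearman's rho between the number per Mb and that of regions of all 4 lists was 0.70. It was 0.44 for the racing homer hindlimb alone, 0.24 for the racing homer forelimb alone and 0.18 for the Indian fantail forelimb alone. Both numbers were taken per Mb of the same scaffold, and the part of this shared divisor in rho was not tested. These values describe scaffolds that share the same libraries, and the sets compared differ in size. The correlations were not measured with lists of equal length.

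**Figure D5:**
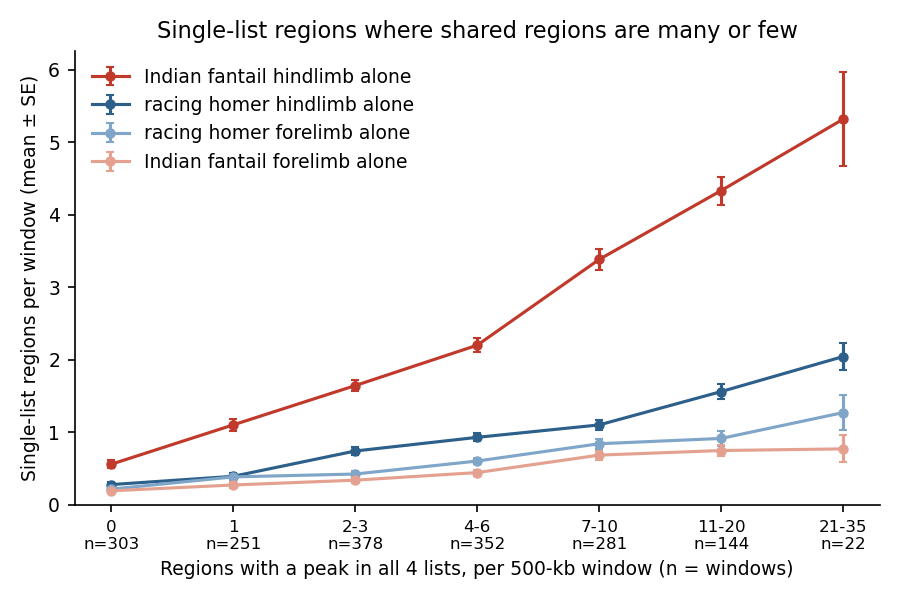
Mean number of single-list regions per 500-kb window with its standard error over windows (vertical axis), by the number of regions with peaks in all 4 lists in the window (horizontal axis, with the number of windows), for each list. The mean for the Indian fantail hindlimb rises from 0.561 to 5.32 and lies above the other lists in every class.

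The scaffolds of the limb identity genes named in the study differed in their share of these regions. Scaffold 70, which carries Tbx5, held 2 of them among 41 regions (4.88%, 1.35–16.1%). They lay from 555584 to 556768 (score 59.1), 354 bp from a peak of the racing homer forelimb alone, and from 568902 to 570307 (score 98.3), 13672 bp from the same peak. Scaffold 79, which carries Pitx1, held 89 among 431 (20.6%, 17.1–24.7%). Scaffold 95, next to scaffold 70 in the study's linkage map, held 8 among 58 (13.8%, 7.16–24.9%). The interval lay below the overall 16.7% on scaffold 70, which held 2 such regions, and around it on scaffold 95. On scaffold 79 its lower bound of 17.1% was close to 16.7%. Intervals lay above 16.7% on 7 of the 158 scaffolds, scaffold 79 among them, and below it on 7. No adjustment was made for reading 158 intervals. Regions of the racing homer hindlimb alone numbered 2 on scaffold 70, 31 on scaffold 79 and 5 on scaffold 95. Shares by scaffold were not measured with lists of equal length. Other scaffolds had higher shares, up to 28.6% (18.4–41.5%) on scaffold 269, whose 56 regions gave a wider interval than the 431 of scaffold 79. These intervals cover counting error alone, whole scaffolds hold many other genes, and scaffold 70 has fewer than 50 regions. Directly upstream of Tbx5, the study reported its most significant region of differential enrichment between Indian fantail and racing homer hindlimbs. There, enrichment of the Indian fantail hindlimb overlapped that of wild-type forelimbs. Regions with a forelimb peak are outside the rule, so the share on scaffold 70 leaves them out. An interval of scaffold 79 upstream of Pitx1 is deleted in the Indian fantail, so no Indian fantail peak could be called there.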

How the data were processed

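H3K27ac ChIP-seq with single-end reads of 50 bp was carried out on forelimb and hindlimb buds of both breeds. The authors deposited 4 peak lists with positions on numbered scaffolds and a peak score. The deposited score starts at 50, and its scale is not given in the sources used here. Values of 3100 recur in each list. The submitters' processing notes name CASAVA, Bowtie2 2.2.3, SAMtools, MACS 1.4.2 and MACS2 2.0.10.20130915. Peak names in the lists follow MACS. The genome build and the way replicates were combined are not given in the sources used here. A pair of deposited tables holds the authors' own comparison of the hindlimbs (regions and their log10 likelihood ratios) and was not used.

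Peaks were joined at an overlap of 1 bp. Positions are counted from 1. Distances run between facing ends. Clusters were joined at gaps of up to 10 kb. Medians have 95% order-statistic intervals and shares have 95% Wilson intervals, which cover counting error only; neighbouring peaks are not independent, and no test was run. The members and lists were chosen with earlier results of these data known. Regions were named by rule: the 10 highest scores, the 5 widest, the 3 narrowest, the 5 farthest and 3 nearest, the 5 largest clusters, the 3 longest runs, and those on scaffold 70. The rule also held a window near Pitx1 on scaffold 79, which was not used here. The study's text gives its start, the deleted interval, but not its far end. Scaffolds 269 and 836 and the peaks at the edge of the rule were picked once their values had been seen. Nearest genes and sequences are not given, as the gene table at hand is of a different assembly. Alternatives changed the overlap, the joining distance, the score and width minimums, the list length and the cluster gap. Calculations used Python 3.11.15, numpy 2.4.6, scipy 1.17.1 and matplotlib 3.10.9. In checks with planted values, 16 of 16 recovered them, some on simulated lists of 3000 regions and the others on separate, smaller made-up inputs.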

Additional observations from a re-analysis of the deposited data

How the results depend on the processing

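Of 58 values under the alternatives, 12 stayed within 1.5 times (counts and the ratio) or within their interval (the rest) and 46 moved. For lists of equal length, there were 1614 regions, 7.52% of regions, 10.5% of peaks, a ratio to the racing homer hindlimb of 1.15, medians of 1553 bp (width), 112 (score) and 6322 bp (distance), 10.2% in clusters and 17.0% in runs (the last added after seeing the data). With scores at or above each list's median, there were 2078 regions, 15.8% of regions, 18.5% of peaks, a ratio of 2.85, medians of 1852 bp, 173 and 12853 bp, and 14.3% in clusters. With scores of at least 100 in every list, these were 3040 regions, 18.9%, 21.7%, a ratio of 3.68, 1640 bp, 132, 11460 bp and 16.8%. With that minimum in the Indian fantail hindlimb only, there were 831 regions, 3.62% of regions, 5.92% of peaks, a ratio of 0.272, medians of 1692 bp and 125, and 5.54% in clusters. With peaks of at least 1 kb, shares were 17.6% of regions and 21.1% of peaks and medians 1382 bp, 81.4 and 7233 bp. With an overlap of 50% of both peaks, 25.3% of peaks, medians of 1274 bp, 72.9 and 2814 bp, and 28.9% in clusters resulted, and no share of regions is defined. With peaks up to 1 kb apart joined, the values were 14.7% of regions, 14.9% of peaks, 1233 bp, 10927 bp and 11.8% in clusters, and 6 of the 10 highest-scoring regions remained. Gaps of 50 kb put 53.0% in clusters, and the distance to regions of all 4 lists, chosen after seeing the data, was 20064 bp. The score, width and list-length settings change how many peaks are compared, and the others change what counts as shared, grouped or near. The cause of these moves was not tested further. No paired analysis was possible because the lists hold 1 value per breed and limb, and for the same reason no replicate could be left out. The unknown depth limits every count of regions in a single list.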
